A study of Mus musculus with 24 samples.

Results

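The region described here is a stretch of mouse chromosome 5 that reaches 20 Mb to either side of the promoter of Htt, the huntingtin gene. Its members are the ATAC-seq peaks whose midpoint lay between positions 14761000 and 54762000 of build GRCm38, which gave 2665 of the 147020 peaks in the deposited table. Of these, 2656 passed the filter on low counts and were tested, and the 9 that did not held 140 to 222 counts over all libraries together. Position alone chose the peaks, so their counts were free to vary. Just inside the low end, a peak near Gm9758 at chr5:14807189-14807504 had a log2 fold change of -0.04 in Q140 vs WT and -0.13 in Q140_Msh3KO vs Msh3KO, and just outside it the neighbouring peak at chr5:14725284-14725483 had -0.10 and 0.73. At the high end, the last peak inside, near Gm10440 at chr5:54740064-54740554, had 0.86 and 0.49, and the first peak outside, at chr5:54796230-54797420, had 0.35 and 0.12.

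ATAC-seq uses the Tn5 transposase to cut and tag DNA that is not tightly packed, so the count in a peak measures how open that stretch was. The study applied it to striatal nuclei of 12-month-old C57BL/6 mice, sorted for NeuN, a protein of most neuronal nuclei, with 50000 nuclei per library. There were 24 libraries, 1 for each of 3 females and 3 males per genotype. Q140_Msh3KO animals were heterozygous for the Q140 knock-in allele of Htt, which carries an expanded CAG repeat, and lacked both copies of Msh3. Q140 animals carried the same heterozygous knock-in with Msh3 intact, Msh3KO animals lacked Msh3 and had no knock-in, and WT animals had neither change. The knock-in and the deletion are in every cell and act throughout life, so the comparisons hold no information on when or in which cell type an effect began. Libraries are named by sex and number within a genotype, such as Q140 F1.

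Htt encodes huntingtin, a large scaffold protein, and an expanded CAG repeat in its first exon causes Huntington's disease, in which striatal projection neurons are lost first. The repeat grows further in striatal neurons with age, and Msh3, a subunit of the MutS-beta mismatch repair complex, is needed for that growth. The knock-in allele lies inside the region. The counts of its 2 copies of chromosome 5 were not separated, so the edited and the unedited copy cannot be told apart, nor can fewer nuclei with an open site and less opening per nucleus. Sequence linked to the knock-in on its copy of chromosome 5 can also differ between animals with and without it. Such a difference was not tested, and cannot be told apart here from an effect of the repeat.

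Library totals over all peaks ran from 4372251 to 11736557 counts, and peaks of the region took 1.51% to 1.91% of them. Defining markers of neurons and of striatal projection neurons were open in every library, with summed promoter signals of 76.4 to 128 and 184 to 282 CPM (counts scaled to 1 M reads of the TMM library size). Promoters of 4 microglial markers had no peak in the table, and those of 5 astrocyte markers gave 1 peak with 1.59 to 4.48 CPM. Promoters of 4 of 5 oligodendrocyte markers had a peak, with summed signals of 6.75 to 14.6 CPM, and 4 endothelial markers gave 2 peaks with 0.683 to 3.9 CPM. The promoter peak of Msh3 does not check the deletion, and it held 61.8 to 84.1 CPM in Msh3KO animals and 54.3 to 82.2 in WT animals. Of 25 tested peaks annotated to Msh3 transcripts, 4 rose and 0 fell in Msh3KO vs WT, by up to 1.54 on the log2 scale, and 18 of the 19 peaks called in that comparison lay on chromosome 13, which carries Msh3. Chromosome X took 1.47% of the counts of the library labelled Q140 F2, where the remaining 11 females had 1.72% to 1.94% and the 12 males 1.49% to 1.59%. Q140_Msh3KO M1 had 12.7% of its counts in its 10 highest peaks, where every other library had 2.52% to 6.82%. Both labels were kept, so the sex term and the fits of 1 sex count Q140 F2 as female, although its share was below that of every male. Counts of called peaks without these 2 libraries are given beside the results.

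The Htt promoter is shown because every distance below is measured from the midpoint of its peak, at chr5:34760964-34762717. The 300 bases from RefSeq that span its transcription start, chr5:34761490-34761789 on the plus strand of GRCm38.p6, run from 250 bases before the start to 50 after it. Capitals mark GGGCGG or its reverse complement CCGCCC, the core of Sp1-type GC boxes, and TGACGTCA, the full cAMP response element, searched on both strands.
Htt promoter: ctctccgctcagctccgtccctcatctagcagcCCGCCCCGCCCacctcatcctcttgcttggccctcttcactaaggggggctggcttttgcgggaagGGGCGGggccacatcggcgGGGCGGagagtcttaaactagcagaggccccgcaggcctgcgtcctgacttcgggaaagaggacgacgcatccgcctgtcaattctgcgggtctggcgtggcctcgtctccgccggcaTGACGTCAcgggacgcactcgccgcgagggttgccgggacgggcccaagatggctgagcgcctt
The window held 4 GC box matches and 1 match to TGACGTCA, with 29 CG pairs and 67.3% G or C. Among 32851 RefSeq promoters of the same length, 35.7% held GGGCGG on either strand and 1.79% held TGACGTCA, and among the 470 in the region the shares were 41.3% and 1.91%. These matches describe the sequence and say nothing about what binds there.

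The Htt promoter did not pass the test in any comparison. Its peak held 39.8 to 48.3 CPM in Q140_Msh3KO animals (median 44.6), 34.5 to 47.9 in Q140 animals (median 43.0), 36.1 to 54.8 in Msh3KO animals (median 45.6) and 37.0 to 54.6 in WT animals (median 43.1). All 4 ranges overlapped. The log2 fold change was -0.02 ± 0.11 in Q140 vs WT (SE, adjusted p = 0.957, edgeR) and -0.03 in Q140_Msh3KO vs Msh3KO. A pair of peaks in intron 1 of Htt also missed the threshold. The one at chr5:34772718-34773558 had -0.16 in Q140 vs WT (adjusted p = 0.679), and the one at chr5:34773667-34774019 had -0.63 ± 0.25 (adjusted p = 0.105), with 0.10 in Q140_Msh3KO vs Msh3KO.

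None of the other promoters close to Htt passed the test. The 24 promoter peaks within 1 Mb, those of Htt and its neighbours such as Grk4 (a G protein-coupled receptor kinase), Add1 (adducin, a cytoskeletal protein), Rgs12, Nelfa (a subunit of the complex that pauses RNA polymerase II) and Letm1 (a mitochondrial ion exchanger), gave log2 fold changes of -0.25 to 0.51 in Q140 vs WT, with a median of 0.01. The smallest adjusted p among them was 0.185 (edgeR's quasi-likelihood test, adjusted over all tested peaks). In Q140_Msh3KO vs Msh3KO they ran from -0.38 to 0.35 with a median of -0.04, and in Q140_Msh3KO vs Q140 from -0.38 to 0.35 with a median of -0.05. Neither comparison, nor Msh3KO vs WT nor the interaction, called any of the 24.

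Away from promoters, accessibility near Htt did change in Q140 animals. Within 1 Mb, 11 of 229 tested peaks passed the threshold in Q140 vs WT, 3 higher and 8 lower, or 4.8%, and 11 also passed without Q140 F2 and Q140_Msh3KO M1. Over all 146155 tested peaks the share was 10.3%, with 4.2% higher and 6.11% lower. The 11 peaks, named here after their values were seen, lay in introns of Zfyve28, Fam193a, Msantd1, Rgs12 and Sh3tc1 or between genes near Lrpap1, Adra2c and 4930478P22Rik. The rises were 0.80 at Fam193a (chr5:34430405-34431115), 0.63 near Lrpap1 (chr5:35188231-35188452) and 0.42 at Msantd1 (chr5:34899732-34900631), as log2 fold changes. The falls ran from -1.59 at Rgs12 to -0.44 near Adra2c, the gene of a noradrenaline receptor.

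The strongest change near Htt was at Rgs12, a regulator of G protein signalling that shortens signals from G protein-coupled receptors. A peak in its intron 3 (chr5:34979036-34979785), 0.218 Mb from the Htt promoter, held 11.5 to 17.1 CPM in Q140_Msh3KO animals (median 14.5), 5.78 to 8.36 in Q140 animals (median 6.9), 14 to 29.5 in Msh3KO animals (median 21.3) and 17.4 to 25.7 in WT animals (median 20.9). Every Q140 animal was below every animal of the other 3 genotypes, and the Q140_Msh3KO animals lay between, overlapping the Msh3KO range and ending just under the lowest WT animal. The log2 fold change was -1.59 ± 0.15 in Q140 vs WT (SE, adjusted p = 7.23e-10, edgeR) and -0.61 ± 0.14 in Q140_Msh3KO vs Msh3KO (adjusted p = 0.04997), a value at the threshold that passed in 10 of 24 refits with other settings or with libraries left out. Q140_Msh3KO animals were higher than Q140 animals by 1.00 ± 0.15 (adjusted p = 1.63e-04). The interaction, the effect of losing Msh3 in knock-in animals minus that in animals without the knock-in, was 0.97 ± 0.20 with an adjusted p of 0.0548. In 35 refits it was 0.87 to 1.08 and passed in 9, with adjusted p of 0.0113 to 0.992, the highest in females alone.

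A further pair of Rgs12 peaks fell in Q140 vs WT. The peak at chr5:34970172-34970924 had -0.74 ± 0.18 (SE, adjusted p = 0.00494, edgeR) and the one at chr5:35000793-35001163 had -0.73 ± 0.17 (adjusted p = 0.0025). The remaining 8 of the 11 Rgs12 peaks did not pass, and the promoter peak had -0.21. All 3 called Rgs12 peaks were intronic.

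**Figure D1:**
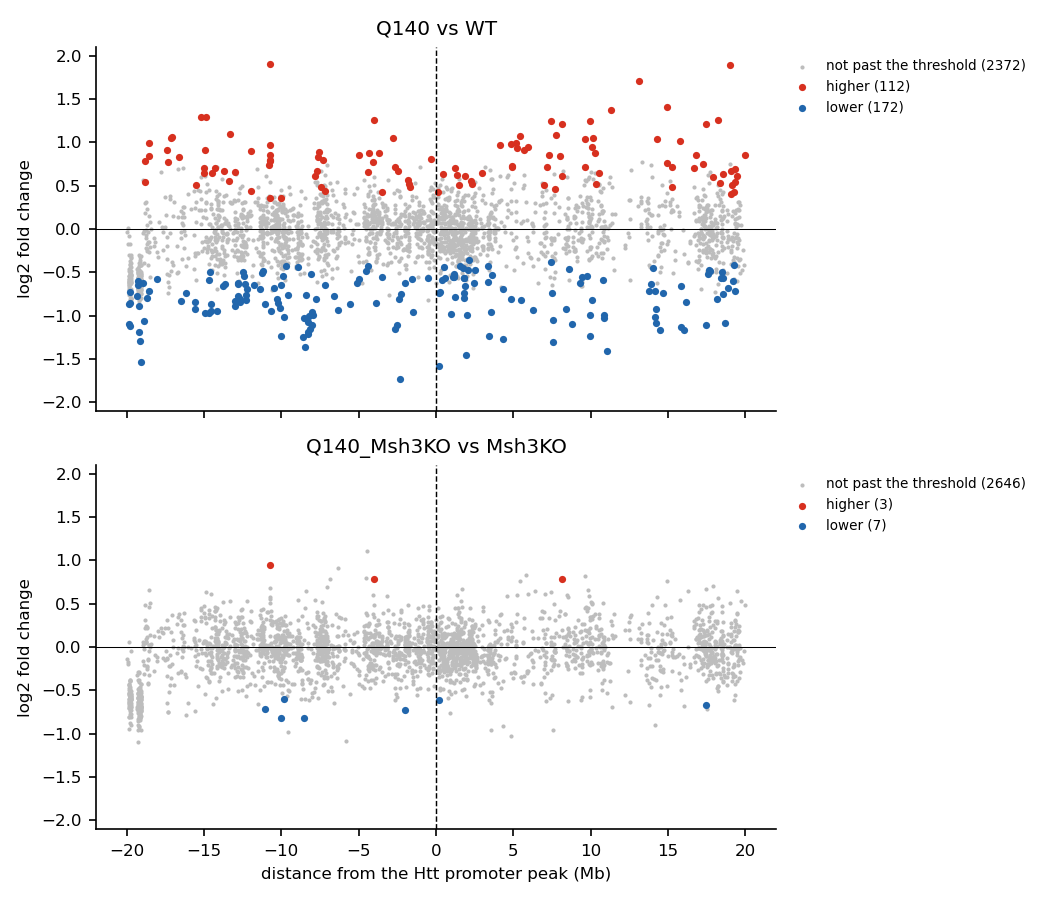
Log2 fold change of each tested peak (vertical axis) against its distance in Mb from the Htt promoter (horizontal axis), for Q140 vs WT (upper panel) and Q140_Msh3KO vs Msh3KO (lower panel); coloured points passed an adjusted p of 0.05. Called peaks are spread over the whole width in Q140 vs WT (112 higher, 172 lower), and 3 higher and 7 lower remain past the threshold in Q140_Msh3KO vs Msh3KO.

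Over the whole region, 284 of 2656 tested peaks changed in Q140 vs WT, 112 higher and 172 lower, which is 10.7%, close to the 10.3% over all tested peaks. The rest of chromosome 5 had 9.69% and the autosomes outside chromosome 5 and away from Msh3 had 10.3%. The called peaks belonged to 131 genes by nearest start, and log2 fold changes over all tested peaks of the region ran from -1.74 to 1.90 with a median of -0.04. Introns held 153 of the called peaks, intergenic stretches 113 and promoters 7, at a median of 44.9 kb from the nearest annotated start. The low side of Htt held 145 of them and the high side 139. Without Q140 F2 and Q140_Msh3KO M1 the count was 249. Scaling by total counts gave 140 higher and 153 lower in place of 112 and 172. With females alone, Q140 F2 among them, 37 peaks passed and with males alone 221, and the difference between the sexes was not tested.

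The share of peaks called in Q140 vs WT was lower close to Htt than over the region. It was 4.8% within 1 Mb (11 of 229), 6.97% within 2 Mb (34 of 488), 7.88% within 5 Mb (73 of 926), 9.21% within 10 Mb (136 of 1476) and 10.7% within 20 Mb. The 1 Mb on the low side of Htt held 2 called peaks of 91, or 2.2%, and the 1 Mb on the high side held 9 of 138, or 6.52%. At 1 to 2 Mb the shares were 6.02% on the low side and 10.2% on the high side, and at 2 to 5 Mb 8.7% and 9.13%. At 5 to 10 Mb they were 9.2% on the low side and 15.3% on the high side, and at 10 to 20 Mb 11.6% and 14.1%. The shares within a distance are cumulative, so the nearest 1 Mb enters each of them. Promoters made up more of the peaks near Htt, with 14.3% of those in the nearest 1 Mb of the low side against 6.74% over the region. With promoters left out the order was the same, from 5.37% within 1 Mb to 7.59% within 2 Mb, 8.47% within 5 Mb, 9.85% within 10 Mb and 11.2% within 20 Mb, against 10.8% on other autosomes. These shares are a description, since neighbouring peaks are not independent and no test was made of the trend.

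**Figure D2:**
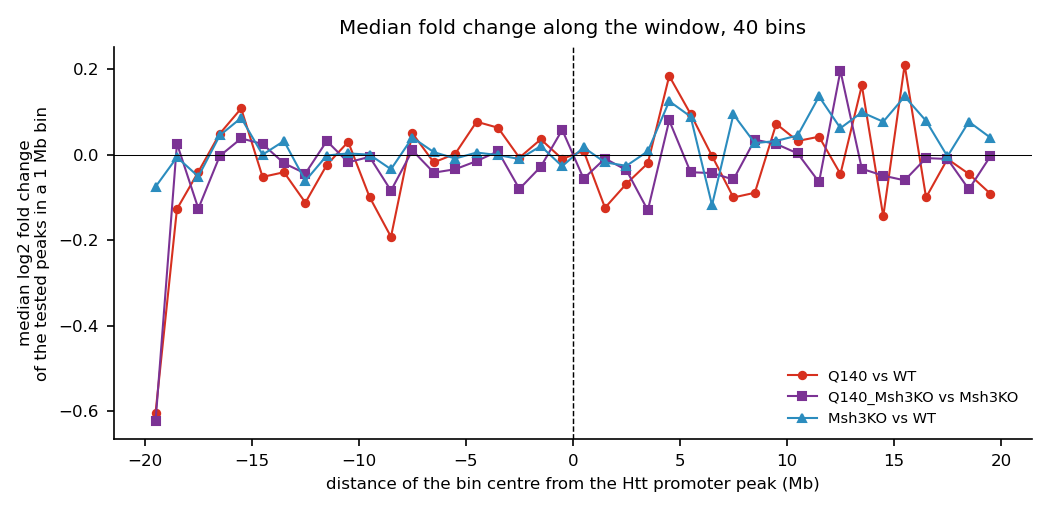
Median log2 fold change per 1 Mb bin over the 40 bins of the region (vertical axis) against distance from Htt in Mb (horizontal axis), for Q140 vs WT, Q140_Msh3KO vs Msh3KO and Msh3KO vs WT. The bin at the low end stands at -0.60, -0.62 and -0.075, and the other bins lie between -0.19 and 0.21 in Q140 vs WT.

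Among classes of peak, introns had 64 higher and 89 lower in Q140 vs WT (11.4% of 1348, against 10.4% of introns on other autosomes) and intergenic peaks 39 higher and 74 lower (12% of 938, against 12.6%). Promoters had 6 higher and 1 lower (3.91% of 179), near the 3.29% of promoters on other autosomes. Peaks in LTR retrotransposons had 2 higher and 23 lower (13.7% of 182, against 10.8% on other autosomes) and those in LINE elements 4 higher and 9 lower (7.51% of 173, against 4.9%). Of the tested LTR and LINE peaks, 50 and 42 belong to a gene cluster at the low end, described last.

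The 7 promoter peaks called in Q140 vs WT were at Hs3st1, Ppargc1a, Fgl2, Magi2, Tbc1d19 and Fam126a, which rose, and Ppp2r2c, which fell. None of them lay within 2 Mb of Htt, and none passed in any other comparison. In 24 refits with other settings or with libraries left out, Hs3st1 and Magi2 passed in 23 each and Ppargc1a in 20. Fam126a passed in 17, Tbc1d19 in 13, Fgl2 in 10 and Ppp2r2c in 9. Hs3st1, whose enzyme places a rare sulfate on heparan sulfate chains, held 14.7 to 23.6 CPM in Q140_Msh3KO animals (median 21), 21.7 to 27.7 in Q140 animals (median 23.3), 14.2 to 20.2 in Msh3KO animals (median 17.2) and 11.5 to 19.5 in WT animals (median 14.1). Every Q140 animal was above every WT and Msh3KO animal, while Q140_Msh3KO animals overlapped both neighbours. Relative to WT it rose in Q140 animals by a log2 fold change of 0.72 ± 0.13 (SE; adjusted p = 9.83e-05, edgeR).

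Magi2, a scaffold of inhibitory and excitatory synapses, held 24.1 to 34.3 CPM at its promoter in Q140_Msh3KO animals (median 26.3), 29.8 to 33.1 in Q140 animals (median 31.5), 22.1 to 25.3 in Msh3KO animals (median 23.6) and 20.7 to 23.7 in WT animals (median 21.9). Q140 and WT animals did not overlap, and the rise was 0.51 ± 0.10 (SE, adjusted p = 2.91e-04, edgeR). Ppargc1a encodes PGC-1alpha, a coactivator of mitochondrial genes that has been studied in Huntington's disease. The peak called there, at chr5:51568382-51568614, lies at the start of a non-coding transcript of the gene and rose by 0.86 ± 0.24 (adjusted p = 0.0157). It held 1.44 to 3.54 CPM in Q140 animals and 1.1 to 1.61 in WT animals, so it is a weak peak and the ranges overlapped. The stronger peak at a coding start of Ppargc1a (chr5:51553540-51554270) went the other way and did not pass. Its log2 fold change was -0.37 ± 0.13 (SE, adjusted p = 0.055, edgeR), with 8.19 to 11.1 CPM in Q140 animals and 9.87 to 15 in WT animals. Ppp2r2c, a regulatory subunit of protein phosphatase 2A, fell by 0.35 on the log2 scale with an adjusted p of 0.0495.

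The promoters of Hs3st1 and Ppp2r2c are printed as the largest rise with a RefSeq promoter under the peak and the single fall. Each is 300 bases from 250 before to 50 after the start on GRCm38.p6, for Hs3st1 chr5:39644582-39644881 on the minus strand and for Ppp2r2c chr5:36868260-36868559 on the plus strand, with matches to GGGCGG or its reverse complement in capitals.
Hs3st1 promoter: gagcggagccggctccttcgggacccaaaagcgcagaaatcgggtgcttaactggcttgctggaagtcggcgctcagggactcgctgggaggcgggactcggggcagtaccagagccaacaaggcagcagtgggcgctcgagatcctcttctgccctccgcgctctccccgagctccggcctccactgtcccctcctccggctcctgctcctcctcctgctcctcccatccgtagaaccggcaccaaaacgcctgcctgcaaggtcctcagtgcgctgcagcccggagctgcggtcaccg
Ppp2r2c promoter: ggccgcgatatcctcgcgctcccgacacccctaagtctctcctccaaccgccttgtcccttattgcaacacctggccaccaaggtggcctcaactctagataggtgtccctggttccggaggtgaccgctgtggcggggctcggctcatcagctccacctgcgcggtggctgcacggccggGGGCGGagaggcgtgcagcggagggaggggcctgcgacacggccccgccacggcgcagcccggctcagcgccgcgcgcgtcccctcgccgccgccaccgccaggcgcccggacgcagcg
Hs3st1 held 0 matches and Ppp2r2c held 1, and neither held TGACGTCA. Both are rich in G and C, at 67% and 72.7% of bases, against a median of 52.7% over all promoters.

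Single distal sites had larger fold changes than the called promoters. The peak with the smallest p among the rises lay between genes, 17.6 kb upstream of Fam126a (hyccin, part of a lipid kinase complex at the plasma membrane), at chr5:24047971-24048631 and 10.7 Mb from Htt. It held 5.02 to 7.81 CPM in Q140_Msh3KO animals (median 6.9), 6.38 to 13 in Q140 animals (median 11), 2.21 to 4.81 in Msh3KO animals (median 3.37) and 1.76 to 3.51 in WT animals (median 2.76). Both groups with the knock-in were above both groups without it in every animal. Its log2 fold change was 1.90 ± 0.18 in Q140 vs WT (SE, adjusted p = 7.72e-10, edgeR), 0.95 ± 0.18 in Q140_Msh3KO vs Msh3KO (adjusted p = 0.0151) and -0.62 ± 0.15 in Q140_Msh3KO vs Q140 (adjusted p = 0.0477).

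A rise of the same size, 1.90 ± 0.25 (SE, adjusted p = 5.67e-07, edgeR), was found 48.2 kb upstream of Tbc1d19, a protein with a Rab GTPase-activating domain. That peak, at chr5:53761165-53761613, held 2.17 to 4.98 CPM in Q140_Msh3KO animals, 3.7 to 6.48 in Q140 animals, 1.01 to 3.32 in Msh3KO animals and 0.587 to 1.78 in WT animals. Its value in Q140_Msh3KO vs Msh3KO was 0.51, which did not pass. The largest fall in size, which the rule for named peaks did not select, was -1.74 ± 0.25 (SE, adjusted p = 3.03e-06, edgeR), 23.1 kb from the start of Ppp1cb, a catalytic subunit of protein phosphatase 1. That weak peak, at chr5:32435667-32435998, held 0.708 to 1.85 CPM in Q140 animals and 2.38 to 5.33 in WT animals, which did not overlap.

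Intron 1 of Dpysl5, a collapsin response mediator protein of growing neurites, held a peak (chr5:30737958-30738733) with 6.07 to 15.1 CPM in Q140_Msh3KO animals (median 12.1), 10.7 to 15.2 in Q140 animals (median 12.3), 5.58 to 7.91 in Msh3KO animals (median 6.55) and 3.15 to 8.34 in WT animals (median 5.17). Q140 animals stood clear of WT animals, and 1 Q140_Msh3KO animal lay within the Msh3KO range. It rose by 1.26 ± 0.17 in Q140 vs WT (SE, adjusted p = 9.96e-07, edgeR) and by 0.79 ± 0.16 in Q140_Msh3KO vs Msh3KO (adjusted p = 0.0308), with -0.12 between Q140_Msh3KO and Q140 (adjusted p = 0.908).

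Slit2, a secreted axon repellent, had a weak intergenic peak 113 kb upstream (chr5:47869601-47869935) with another pattern. It held 1.01 to 1.76 CPM in Q140_Msh3KO animals (median 1.47), 2.71 to 4.13 in Q140 animals (median 3.3), 0.595 to 1.68 in Msh3KO animals (median 1.4) and 0.549 to 1.58 in WT animals (median 1.02). Q140 animals stood above all the others, and the other 3 groups overlapped. The log2 fold change was 1.71 ± 0.25 in Q140 vs WT (SE, adjusted p = 5.64e-06, edgeR) and -1.25 ± 0.24 in Q140_Msh3KO vs Q140 (adjusted p = 0.00443), against 0.22 in Q140_Msh3KO vs Msh3KO (adjusted p = 0.961). The interaction was -1.50 with an adjusted p of 0.159, so the difference between the knock-in effects did not pass.

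Other falls in Q140 vs WT, as log2 fold changes that passed, were -1.41 in intron 1 of Lcorl, -1.46 near D5Ertd579e, -1.36 near Gm7361 and -1.24 near Nsg1, a neuron-specific endosomal protein. Upstream of Dpp6, an auxiliary subunit of Kv4 potassium channels, the fall was -1.11. Ldb2, a LIM-domain-binding cofactor, had changes both ways inside its intron 1, with -1.24 at chr5:44743681-44744357 and 1.24 at chr5:44712402-44712791. Further rises were 1.26 near 5033403H07Rik, 1.22 near C130083M11Rik, 1.21 upstream of Cpeb2 (an RNA-binding regulator of translation), 1.06 in intron 7 of Sema3c (a secreted axon guidance protein) and 0.90 near A930003O13Rik.

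**Figure D3:**
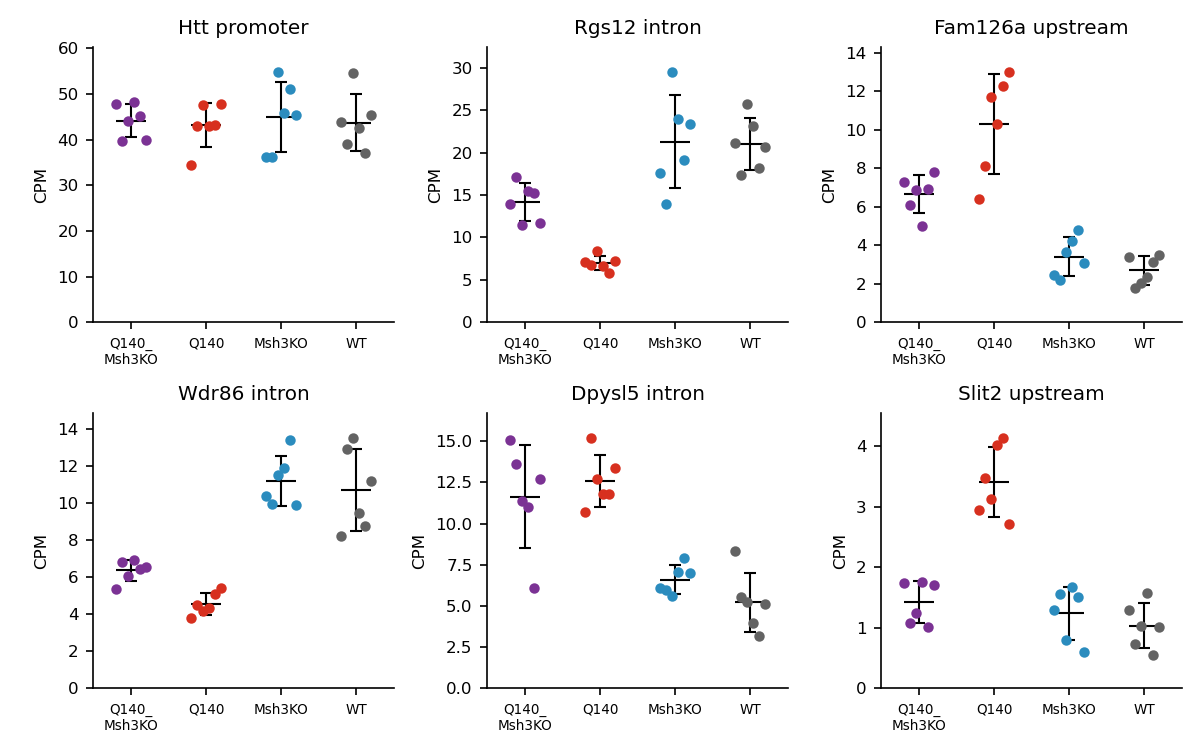
CPM in each animal (points, with the group mean and SD as a bar) for 6 peaks of the region, at Htt, Rgs12, Fam126a, Wdr86, Dpysl5 and Slit2, with Q140_Msh3KO, Q140, Msh3KO and WT from left to right. At Rgs12 the Q140 animals (5.78 to 8.36 CPM) lie under all the others, and at Slit2 (2.71 to 4.13 CPM) above all the others.

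With earlier results of these data known, genes of the region were grouped by role into 7 lists with 78 genes. Of these genes 74 had tested peaks, 859 in all. Of these peaks, 46 rose and 59 fell in Q140 vs WT, or 12.2%, against 10.7% over the region and 10.3% over all tested peaks. Ion channels and their partners had 14 higher and 20 lower of 195 peaks (17.4%, median log2 fold change -0.01), where the median over all peaks of the region was -0.04. Kcnip4, a Kv4 channel-interacting protein, had 1 higher and 9 lower of 48, Dpp6 5 and 5 of 70, Cacna2d1, a calcium channel subunit, 4 and 3 of 26, and Stim2, a calcium sensor of the endoplasmic reticulum, 3 and 3 of 22.

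Axon guidance and extracellular signals had 10 higher and 7 lower of 117 peaks (14.5%, median 0.04). Hs3st1 gave 7 of the rises and 1 of the falls among its 28 peaks, and Reln, the secreted protein reelin, had 4 falls and 0 rises among 41. Synaptic scaffolds, adhesion and release had 12 higher and 10 lower of 164 (13.4%, median -0.02), of which Magi2 gave 7 and 6 among 64 peaks, Nsg1 0 and 3 among 15 and Dpysl5 2 and 0 among 9. Developmental transcription factors had 4 higher and 7 lower of 91 (12.1%, median 0.04), with 2 and 4 of 41 at Ldb2.

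Kinase, receptor and G protein signalling genes had 1 higher and 10 lower of 117 (9.4%, median -0.01). The falls included 3 of 11 peaks at Rgs12 and 2 of 28 at Prkag2, a gamma subunit of the energy sensor AMPK, while 0 of 5 peaks changed at Drd5, a dopamine receptor. Metabolism, stress and chaperones had 5 higher and 4 lower of 108 (8.33%, median -0.03). Chromatin and transcription regulators had 0 higher and 1 lower of 67 (1.49%, median -0.04), the fall being in intron 1 of the corepressor Ctbp1 (-0.95). Of the 49 promoter peaks of all lists, 3 rose and 1 fell in Q140 vs WT, and 0 passed in Q140_Msh3KO vs Msh3KO or Q140_Msh3KO vs Q140. No test compared the lists with one another.

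The effect of the knock-in without Msh3 came from other animals. In Q140_Msh3KO vs Msh3KO, 10 of 2656 peaks passed, 3 higher and 7 lower, or 0.377%. Over all tested peaks the share was 0.116%, with 0.0233% higher and 0.0924% lower, and on the other autosomes it was 0.113%. All 10 had also passed in Q140 vs WT with the same sign. On other autosomes 141 of 148 had done so, and on the rest of chromosome 5, 7 of 7. The 2 comparisons share no animals. Of the 284 peaks called in Q140 vs WT, 263 (92.6%) had the same sign in Q140_Msh3KO vs Msh3KO, against 90.7% on other autosomes and 89.3% on the rest of chromosome 5. The 112 that rose had a median log2 fold change of 0.75 in Q140 vs WT and 0.28 in Q140_Msh3KO vs Msh3KO, and the 172 that fell had -0.77 and -0.32. The first value of each pair is the one that chose the peaks. The count of 10 rested on single animals, being 1 without Q140_Msh3KO M3 or Msh3KO M3, 2 without Q140_Msh3KO F3 or Msh3KO M1, 3 without Q140_Msh3KO F1 or Msh3KO M2, 4 without Msh3KO F3, 6 without Q140_Msh3KO M2, and 6 without Q140 F2 and Q140_Msh3KO M1.

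**Figure D4:**
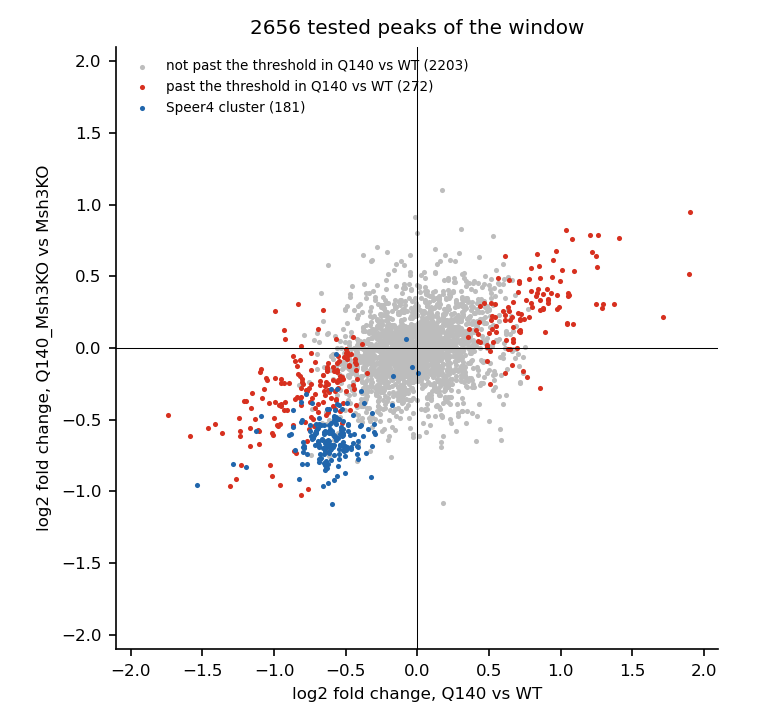
Log2 fold change in Q140_Msh3KO vs Msh3KO (vertical axis) against that in Q140 vs WT (horizontal axis) for the tested peaks of the region. Each point is 1 peak. Peaks called in Q140 vs WT outside the Speer4 cluster are red. The 181 peaks of that cluster, at the low end, are blue, including the 12 called in Q140 vs WT. Of the 284 peaks called in Q140 vs WT, 263 have the same sign on the vertical axis.

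Besides Fam126a, Dpysl5 and Rgs12, the 10 peaks were at Wdr86, Prkag2, AI506816, Gm7361, Pisd, Cpeb2 and C130083M11Rik. The peak in intron 2 of Wdr86 (chr5:24719150-24719884) held 5.38 to 6.92 CPM in Q140_Msh3KO animals (median 6.49), 3.78 to 5.42 in Q140 animals (median 4.41), 9.88 to 13.4 in Msh3KO animals (median 11) and 8.22 to 13.5 in WT animals (median 10.3). Every animal with the knock-in was below every animal without it. The log2 fold change was -0.81 ± 0.14 in Q140_Msh3KO vs Msh3KO (SE, adjusted p = 0.00439, edgeR) and -1.23 ± 0.14 in Q140 vs WT (adjusted p = 4.97e-08).

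The Prkag2 peak in intron 3 (chr5:24966542-24967089) divided the animals in the same way, with 5.91 to 7.53 CPM in Q140_Msh3KO animals, 3.88 to 5.14 in Q140 animals, 8.62 to 12.4 in Msh3KO animals and 8.91 to 10.4 in WT animals. It fell by 0.59 on the log2 scale in Q140_Msh3KO vs Msh3KO (adjusted p = 0.029, edgeR). The peak in intron 1 of Pisd, which makes phosphatidylethanolamine in mitochondria, fell by 0.72 there, against -0.63 in Q140 vs WT. Near AI506816 the values were -0.72 and -0.86, near Gm7361 (chr5:26211023-26211486) -0.81 and -1.03, upstream of Cpeb2 0.79 and 1.21, and in C130083M11Rik -0.67 and -1.10. In Q140_Msh3KO vs Msh3KO, Cpeb2 (adjusted p = 0.0493, edgeR) and C130083M11Rik (0.0496) were at the threshold. Of 24 refits of that comparison, Cpeb2 passed in 7, Pisd in 9, C130083M11Rik in 10 and AI506816 in 11. Dpysl5 passed in 12, Prkag2 in 13, Gm7361 in 14, Fam126a in 20 and Wdr86 in 22.

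Removing Msh3 from knock-in animals moved 15 peaks. In Q140_Msh3KO vs Q140, 11 rose and 4 fell, or 0.565%, against 0.529% over all tested peaks (0.31% higher and 0.219% lower). The 11 rises were at Rgs12 (1.00), Rbpj (1.07), D5Ertd579e (0.82), Lcorl (0.74), Gm16223 (0.73), C1qtnf7 (0.70), Dpp6 (0.69), Magi2 (0.69), 4930519H02Rik (0.66), Dnajc2 (0.65) and Gbx1 (0.56), as log2 fold changes. Rbpj is the DNA-binding partner of Notch, Dnajc2 a ribosome-associated chaperone and Gbx1 a homeobox factor. The 4 falls were at Slit2 (-1.25), Kcnip4 (-0.76), C130083M11Rik (-0.68) and Fam126a (-0.62). Leaving out single animals gave counts of 4 without Q140 M1 or M2, 5 without Q140_Msh3KO M1 or M2, 6 without Q140_Msh3KO F2 or Q140 M3, 7 without Q140_Msh3KO F1 or Q140 F3, and 27 without Q140_Msh3KO F3, and 4 passed without Q140 F2 and Q140_Msh3KO M1.

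This comparison shares the Q140 animals with Q140 vs WT, so their values are set side by side without a count of shared direction. At Lcorl the peak (chr5:45829234-45829848) held 4.81 to 8.96 CPM in Q140_Msh3KO animals (median 6.71), 2.83 to 4.4 in Q140 animals (median 4.06), 7.08 to 12.1 in Msh3KO animals (median 8.9) and 8.81 to 12.8 in WT animals (median 10). Q140_Msh3KO animals lay above Q140 animals without overlap and overlapped the lower Msh3KO and WT animals. The peak upstream of Dpp6 (chr5:26713807-26714360) held 5.55 to 7.6, 3.19 to 5.56, 6.86 to 11.5 and 7.62 to 9.69 CPM in Q140_Msh3KO, Q140, Msh3KO and WT animals. Its highest Q140 animal just passed the lowest Q140_Msh3KO animal. At Kcnip4 (chr5:49022900-49023446) the order was turned round, with 2.58 to 5.89 CPM in Q140_Msh3KO animals, 5.46 to 8.27 in Q140 animals, 2.5 to 5.09 in Msh3KO animals and 1.58 to 6.3 in WT animals.

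Q140_Msh3KO vs WT, which differ in both genes, called 27 peaks, 11 higher and 16 lower (1.02%, against 0.525% over all tested peaks, 0.252% higher and 0.274% lower). The highest were Magi2 intron 1 (chr5:19556561-19556863) at 1.41, Fam126a upstream and Tbc1d19 upstream at 1.28 each, and Dpysl5 at 1.14, as log2 fold changes. The lowest was a peak near Speer4cos, at -1.21. The count of 27 rested on single animals, being 6 without Q140_Msh3KO M3, 9 without WT M1 or WT M3, 12 without Q140_Msh3KO F1, 15 without Q140_Msh3KO F3 and 17 without Q140_Msh3KO M2, WT F2 or WT F3. It was 75 in a fit of only the groups compared and 27 without Q140 F2 and Q140_Msh3KO M1.

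Loss of Msh3 alone had no called effect in the region. In Msh3KO vs WT, 0 of 2656 peaks passed in edgeR, in DESeq2 and in limma-voom, with 81 at an unadjusted p under 0.05 in edgeR, and 0.013% of all tested peaks passed. The interaction likewise called 0 in edgeR (201 at an unadjusted p under 0.05; 0.0226% of all tested peaks), 1 in DESeq2 and 0 in limma-voom. The peak that DESeq2 called was the one in intron 3 of Rgs12, at 0.98 with an adjusted p of 0.0125.

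Groups that did not overlap were also counted. In Q140 vs WT, 138 of 2656 peaks had every animal of one genotype above every animal of the other, 5.2% against 5.07% over all tested peaks, and 133 of these were among the 284 called. In Q140_Msh3KO vs Msh3KO there were 13, or 0.489% against 0.51%, 6 of them called. In Q140_Msh3KO vs Q140 there were 25, or 0.941% against 1.02%, 5 of them called.

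The low end of the region, nearly 20 Mb from Htt, held the 1 Mb bin with the lowest median log2 fold change of the region. This bin, from 14761000 to 15760999, was chosen after its value was seen among the 40 bins. It covers a cluster of similar genes of the Speer4 family, rodent genes related to spermatogenesis-associated glutamate-rich proteins, with many predicted copies. Its 181 peaks all passed the filter and had a median log2 fold change of -0.60 in Q140 vs WT (SD 0.19 over peaks) and -0.62 in Q140_Msh3KO vs Msh3KO (SD 0.16), with 180 of 181 negative in each. The next lowest bin had -0.19. Tested singly, 12 of its peaks were called lower and 0 higher in Q140 vs WT, and 0 were called in Q140_Msh3KO vs Msh3KO, where the smallest adjusted p was 0.105 (edgeR). The count of 12 in Q140 vs WT depended on the fit, being 64 in limma-voom, 71 in a fit of only the groups compared, 24 in DESeq2, 40 with a replicate block, 80 in males alone, 1 in females alone, 54 without Q140 F1 and 10 without Q140 F2 and Q140_Msh3KO M1. Among 2265 bins of the genome with at least 15 tested peaks, this bin was the 2nd lowest in Q140 vs WT and the lowest in Q140_Msh3KO vs Msh3KO.

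A stretch that the copies share is shown because it sets how far short reads can be placed in the cluster. Of the 11 other RefSeq promoters in the cluster, 8 share a run of 64 to 154 identical bases with Gm9758. The 121 bases below are aligned without gaps, from GRCm38.p6, each 5′ to 3′ on the strand of its gene, and capitals mark bases that differ from Gm9758. Gm9758 is at chr5:14914907-14915027 (minus), Speer4e at chr5:14938484-14938604 (minus), Gm10354 at chr5:14978953-14979073 (minus) and Speer4d at chr5:15618935-15619055 (plus).
Gm9758: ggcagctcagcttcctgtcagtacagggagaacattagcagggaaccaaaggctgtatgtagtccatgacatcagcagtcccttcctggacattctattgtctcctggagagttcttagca
Speer4e: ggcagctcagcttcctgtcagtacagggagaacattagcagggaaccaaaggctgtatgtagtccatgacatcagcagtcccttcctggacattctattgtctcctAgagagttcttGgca
Gm10354: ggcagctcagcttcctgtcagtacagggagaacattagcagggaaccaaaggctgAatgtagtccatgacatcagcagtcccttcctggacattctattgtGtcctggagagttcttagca
Speer4d: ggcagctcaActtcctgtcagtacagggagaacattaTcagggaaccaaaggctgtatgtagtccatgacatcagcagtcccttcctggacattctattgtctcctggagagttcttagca
Speer4e, Gm10354 and Speer4d each differ from Gm9758 at 2 bases, an identity of 98.3%. Over the 8 promoters the identity to Gm9758 was 98.3% to 100%. The stretch was cut around a run of 31 bases found in all of them. Promoters were kept only if they shared at least 50 bases in a row with Gm9758. High identity here follows from that choice and does not describe the genes as wholes. A short read from such a stretch can fit several copies, and how the authors treated such reads is not given in the sources used here. Only 3 of the 181 cluster peaks were promoter peaks, and sequences at the others were not examined. How many of their reads fit several copies is therefore unknown. The peaks of the cluster are not taken as independent measurements, and their counts per copy are uncertain.

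The cluster's summed signal differed widely between animals of 1 genotype. It was 1154, 1434, 1552, 991, 2199 and 1124 CPM in Q140_Msh3KO animals, 2332, 1430, 1159, 1717, 1468 and 935 in Q140 animals, 2195, 3816, 1063, 2122, 2320 and 1945 in Msh3KO animals and 1883, 2523, 1603, 2695, 3035 and 2183 in WT animals, in the order F1 to F3 and M1 to M3. The means were 1410 ± 440, 1510 ± 486, 2240 ± 892 and 2320 ± 532 CPM (SD, n = 6 each) for Q140_Msh3KO, Q140, Msh3KO and WT animals. All groups overlapped, with Q140 F1 above 3 of 6 WT animals and Msh3KO F3 under 5 of 6 Q140_Msh3KO animals. The rest of the region summed to 16000 ± 415, 15800 ± 683, 16200 ± 1260 and 16200 ± 803 CPM in the same order, differing by less than the spread between animals.

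**Figure D5:**
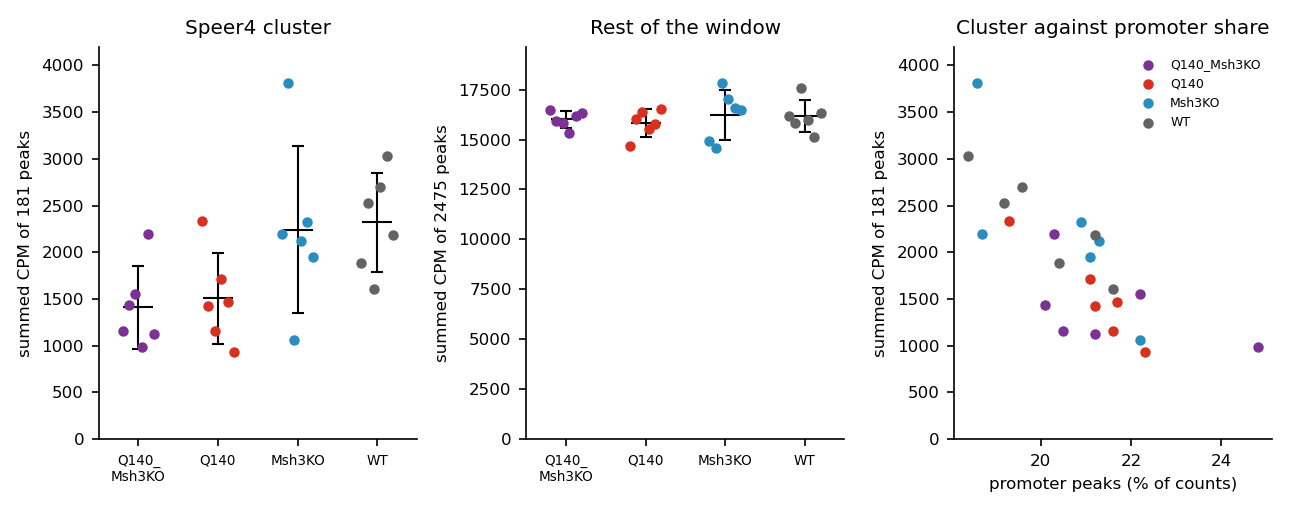
Summed CPM in each animal (points, with mean and SD) of the 181 Speer4 cluster peaks and of the 2475 other tested peaks by genotype, and the cluster sum against the percentage of counts in promoter peaks. Animals of Q140_Msh3KO and Q140 average 1410 and 1510 CPM, and those of Msh3KO and WT 2240 and 2320, with overlap.

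In each genotype the library with the largest share of counts in promoter peaks had the lowest cluster sum. These were Q140_Msh3KO M1, Q140 M3, Msh3KO F3 and WT F3, and no correlation was computed. The share of counts in promoter peaks was 20.1% to 24.8% in Q140_Msh3KO animals, 19.3% to 22.3% in Q140 animals, 18.6% to 22.2% in Msh3KO animals and 18.4% to 21.6% in WT animals. With that share as a covariate the cluster's median was -0.29 in Q140 vs WT and -0.32 in Q140_Msh3KO vs Msh3KO, and the part of library composition in the result was not tested further. In females alone the median in Q140 vs WT was -0.24 and in males alone -0.95, while Q140_Msh3KO vs Msh3KO gave -0.70 and -0.58. The difference between the sexes was not tested.

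The fall was even along the cluster and ended with it. In steps of 0.1 Mb the median was -0.57 to -0.63 in Q140 vs WT from 14.9 to 15.1 Mb and from 15.4 to 15.8 Mb, against -0.06 in the step before and -0.04 in the step after. Of its peaks, 50.8% lay in LTR or LINE elements, against 10.6% in the rest of the region, and their median SE was 0.28, against 0.194. The 21 other RefSeq promoters that share a run of at least 50 bases with Gm9758 all lie in the region, 13 of them outside the cluster, and the 56 tested peaks within 50 kb of those 13 had a median of -0.09 in Q140 vs WT and -0.05 in Q140_Msh3KO vs Msh3KO. Speer4f1, one of the 13, had 4 peaks with medians of -0.64 and -0.63.

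The peak of the cluster that the rule for named peaks selected lies near Speer4cos. At chr5:15673027-15673738 it held 6.65 to 23.5 CPM in Q140_Msh3KO animals (median 14.8), 7.64 to 18.3 in Q140 animals (median 12.1), 26.2 to 34.5 in Msh3KO animals (median 29) and 22.4 to 44.3 in WT animals (median 38.3). Animals with the knock-in did not overlap Msh3KO animals, and 1 WT animal lay within the Q140_Msh3KO range. The log2 fold change was -1.54 ± 0.23 in Q140 vs WT (SE, adjusted p = 8.25e-05, edgeR), -0.96 ± 0.23 in Q140_Msh3KO vs Msh3KO (adjusted p = 0.118) and -1.21 ± 0.23 in Q140_Msh3KO vs WT (adjusted p = 0.0148). Without the 181 cluster peaks the region had 272 of 2475 peaks called in Q140 vs WT, 112 higher and 160 lower, or 11%, with a median of -0.02.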

How the data were processed

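ATAC-seq was measured in 24 libraries of NeuN-sorted striatal nuclei, 1 per animal. The authors deposited 1 table of raw read counts per peak and library, with 147020 peaks from combined data, each annotated with the gene of the nearest start. BWA, SAMtools, Picard, MACS2 and featureCounts on GRCm38 are named in the submitters' processing notes. Not given in the sources used here were their versions and settings, the handling of duplicates and of reads with several matches, and any shift of cut sites. Every one of the 24 count columns entered the fits, and 0 further columns with per-sample values were present. The counts are reads in peaks, so depth outside peaks is unknown here.

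The test was that of edgeR 4.0.16 (R 4.3.3), with TMM scaling, filterByExpr with a count minimum of 10 (146155 peaks kept, median 30.2 counts per library in the region), and a robust quasi-likelihood fit of genotype and sex to all libraries. Benjamini-Hochberg adjustment ran over every tested peak of the genome, at a threshold of 0.05. Fold changes are log2 values with SE, and CPM uses the TMM library size. The fit was also run on counts simulated from its own estimates of spread, which does not check how well it describes these animals. Alternatives were DESeq2 1.42.0, limma-voom (limma 3.58.1), other scalings, no filter, other covariates, each sex, only the groups compared, and left-out libraries. The covariate for the promoter share and all counts for the 1 Mb around Htt and the Speer4 cluster were added after seeing the data.

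Named peaks were those of Htt, promoters within 1 Mb of it, the 10 rises and 10 falls of smallest p in Q140 vs WT, up to 5 and 5 in other comparisons, peaks called in both backgrounds, promoters of listed genes and the 2 strongest per list and direction. Also named were all promoters called in Q140 vs WT, all peaks called in Q140_Msh3KO vs Q140, and the peaks at the ends of the region. Further peaks named outside that rule are marked. The members, lists and rule were chosen with earlier results of these data known. No 2 animals of a genotype agreed within sampling noise: chi-square per peak was 1.34 to 8.94 in the 60 pairs. Same-number animals of different genotypes had correlations of -0.438 to 0.448 (median 0.0285), over 0.1 in 11 of 36 pairs. For F3, those among Q140, Msh3KO and WT were 0.266 to 0.448, and those with Q140_Msh3KO -0.438 to -0.186. Pairs with different numbers were not compared, so whether replicate numbers link animals was not tested. The main fit has no term for replicate number. The p-values measure the spread between these animals. Promoter sequences come from RefSeq. Sequences of distal peaks were not used here.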

Additional observations from a re-analysis of the deposited data

Results flagged for a closer look

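In 11 of 260 groups of 6 animals, over 65 measures, 1 animal lay farther from its group than Dixon's 95% limit allows, or 4.23% of groups, where chance alone gives about 1 in 20. Among the peaks nearest to Htt, Q140 F1 held 34.5 CPM at the Htt promoter against 42.9 to 47.9 in the other Q140 animals, Q140_Msh3KO F1 held 3.3 CPM at the intron 1 peak of Htt starting at 34773667 against 1.24 to 1.99, Q140_Msh3KO F1 held 0.174 CPM at the Hmx1 promoter against 1.13 to 1.69, and WT M2 held 3.29 CPM at the Mir7024 promoter peak starting at 33899309 against 1.7 to 2.11.

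At called peaks, Q140_Msh3KO F3 held 34.3 CPM at the Magi2 promoter against 24.1 to 26.5, Q140_Msh3KO M3 held 5.43 CPM at the Magi2 intron 1 peak starting at 19556561 against 2.41 to 3.3, and Q140 F2 held 7.41 CPM at the Gbx1 intron 1 peak against 10.4 to 11.9. Msh3KO F2, the library with the fewest counts, held 4.65 CPM near Gm7361 at 26211023 against 6.36 to 6.84, and 4.21 CPM near Gm7361 at 26318159 against 6.95 to 7.86. The share of a library's counts in the region was 1.51% in Q140_Msh3KO M1 against 1.74% to 1.82% in the other animals of its genotype, and 1.81% in Q140 F1 against 1.75% to 1.77%.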

How the results depend on the processing

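The count of peaks called in Q140 vs WT was 235 to 330 with single libraries left out (284 with all), 37 in females only and 324 with a replicate block. Within 1 Mb of Htt it was 8 to 13, and 1 in females only. For Q140_Msh3KO vs Msh3KO (10), leaving out libraries gave 1 to 14, DESeq2 18, females only 0, males only 0, a fit of only the groups compared 2, the fit without Q140 F2 and Q140_Msh3KO M1 6, and a replicate block 9. For Q140_Msh3KO vs Q140 (15), they gave 4 to 27, females only 0, without these 2 libraries 4, and a replicate block 16. For Q140_Msh3KO vs WT (27), they gave 6 to 28, DESeq2 45, females only 0, only the groups compared 75, and a replicate block 38. Msh3KO vs WT stayed at 0 throughout. The interaction was 0 to 4 with libraries left out and 1, the Rgs12 intron 3 peak, under DESeq2, no filter, no sex term, the promoter share, a replicate block and total counts. The cause of these moves was not tested, beyond the smaller number of animals in the fits of 1 sex.

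Among 29 named peaks called in Q140 vs WT, 16 passed in all 24 refits. All 10 named in Q140_Msh3KO vs Msh3KO and all 9 in Q140_Msh3KO vs Q140 were lost in at least 1. The Rgs12 peak passed in 24 of 24 refits in Q140 vs WT, 23 in Q140_Msh3KO vs Q140 and 10 in Q140_Msh3KO vs Msh3KO. No called value changed sign. The Speer4 cluster's median was -0.76 to -0.46 in Q140 vs WT with libraries left out and -0.78 to -0.41 in Q140_Msh3KO vs Msh3KO. Its count of 12 called peaks was 9 to 54 with libraries left out, the highest without Q140 F1, and 40 with a replicate block. The medians of Msh3KO vs WT (-0.33 to 0.21) and Q140_Msh3KO vs Q140 (-0.24 to 0.04) changed sign between settings.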
